A study of Mus musculus with 6 samples.

Results

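The genes described here are 10 surface markers that are used to stage B-cell precursors in mouse bone marrow: Kit, Spn, Cd93, Cd24a, Il2ra, Cd2, Cd72, Cd37, Cd22 and Ms4a1. They were taken by gene symbol from a table of 49997 symbols, and all 10 were listed. RNA-seq libraries had been made from small pre-B cells purified by flow cytometry from bone marrow of C57BL/6 mice aged 6 to 12 weeks, 3 from wild-type (WT) mice and 3 from mice of the ΔrsCBE genotype. The Δ stands for a deletion that the labels name no further; the series title places it among CTCF-dependent chromatin contacts and receptor editing. No other allele or treatment is given for either group. The surface proteins that set the sorting gate are not given in the sources used here, so a marker that was part of the gate had its protein level fixed by it. Nothing states whether each library came from a separate mouse, and p-values measure only the spread between these libraries.

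B cells mature in the marrow through pro-B, large pre-B, small pre-B and immature stages, and each step is read from a change of surface proteins. Pro-B cells carry the growth factor receptor Kit and the sialomucin CD43 (Spn). Cells that have assembled a heavy chain pass through a burst of division as large pre-B cells, lose Kit and CD43, gain CD25 (Il2ra) and CD2, and come to rest as small pre-B cells that rearrange light chain genes. CD93 and CD24 (Cd24a) mark immature B-lineage cells as a class, while CD22, CD37, CD72 and CD20 (Ms4a1) belong to the mature B-cell surface and appear at different points on the way there.

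Total counts ranged from 428106 to 1300805 per library, and the detection limit of 3 counts equals 2.32 to 7.17 CPM (counts relative to the library total, scaled by TMM factors). This limit covers counting error only. Xist had at most 1 count in the WT libraries and in ΔrsCBE replicate 1 but 1603 and 1430 counts in ΔrsCBE replicates 2 and 3, in which 4 genes of the Y chromosome (Uty, Kdm5d, Eif2s3y and Ddx3y) had 0 counts. All WT libraries thus have a male pattern and 2 of 3 ΔrsCBE libraries a female one, so sex and genotype can be separated only through ΔrsCBE replicate 1. In bulk RNA, fewer cells of a type and less RNA per cell cannot be told apart.

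In every library the pre-B marker Il2ra was high and Kit was at the limit of detection, while RNA of Spn, the gene of CD43, was still well above it. The order of the markers by level per length was nearly the same in all 6 libraries. Levels are compared between genes as CPM per kb of annotated exon (GENCODE M21, GRCm38). Cd24a stood highest, with a mean of 702 CPM per kb and a range of 611 to 850, which was above 99.9% of the 15328 genes that had a count and an annotated length. Cd72 followed with 186 (150 to 229), then Cd37 with 150 (130 to 166), Cd93 with 133 (125 to 147), Cd2 with 126 (106 to 148) and Il2ra with 121 (111 to 134) CPM per kb. Neighbours among these 5 overlapped across libraries, whereas Cd72 lay above Il2ra in all 6, and none of the 5 reached Cd24a. Cd22 had 43.6 CPM per kb (36.3 to 50.1) and Spn 29.8 (21.9 to 39.8), and these also overlapped. Spn stood above 90.9% of those genes. Ms4a1 lay apart below them with 14.2 CPM per kb (11.5 to 17.1), and Kit was last with 0.117.

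**Figure D1:**
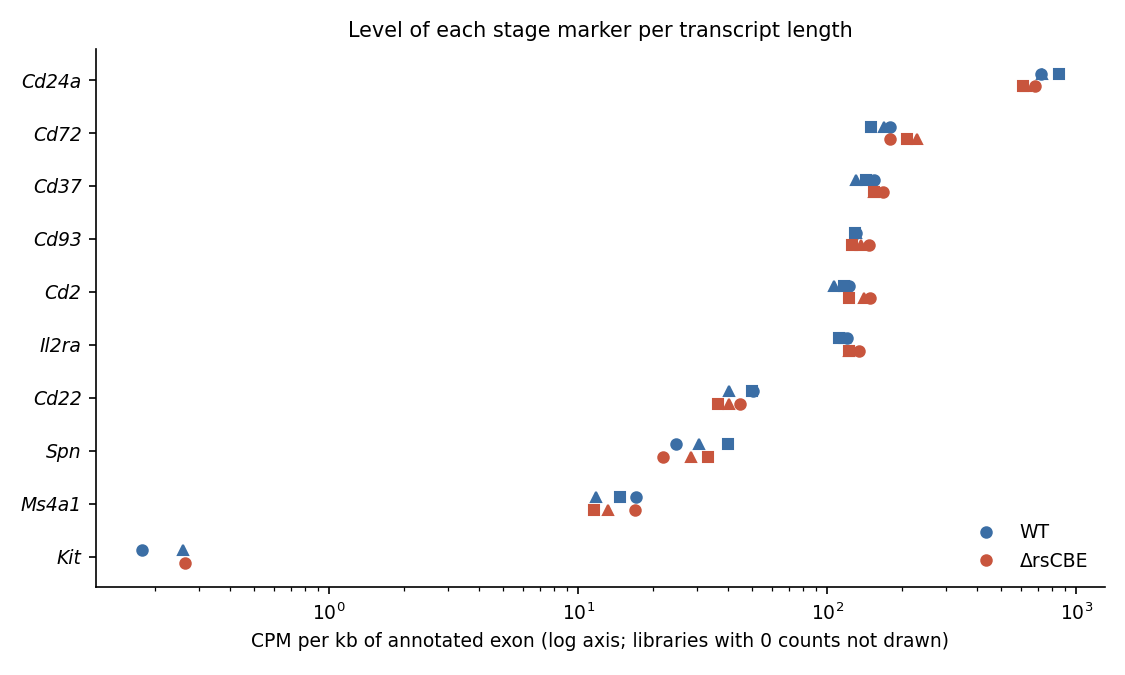
CPM per kb of annotated exon (log axis) of each stage marker, with blue for WT and red for ΔrsCBE; circles, squares and triangles are replicates 1, 2 and 3. Cd24a is highest in all 6 libraries (611 to 850) and Kit, with 0 counts in 3 libraries, is lowest.

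The genotypes were compared next. No marker passed the threshold. Of the 10 markers 9 were tested, Kit being below the count filter, and edgeR's quasi-likelihood test called 0 at a Benjamini-Hochberg adjusted p of 0.05 over all 7792 tested genes, of which 1.69% were called, 0.205% higher and 1.49% lower. At an unadjusted p-value under 0.05 there were 2, Cd72 and Cd24a, against 10.2% of all tested genes. The DESeq2 Wald test also called 0 of the 9, against 1.53% of its genes, and the same 2 had unadjusted p-values under 0.05. Log2 fold changes, given with ± their standard error (± after a mean CPM is the SD), ran from -0.25 (Cd24a) to 0.31 (Cd72), 5 above 0 and 4 below, with a median of 0.07 beside 0.01 for all tested genes. The 95% interval of each of the 9 lay within 1 log2 unit of 0, and the widest reach of any interval was 0.54, a 1.45-fold change. Larger changes lay outside the 95% interval of each tested marker in this fit, which has no term for sex pattern. Intervals are given for this fit only. With sex pattern as a covariate the estimates of Spn and Cd2 were -0.50 and 0.37, so larger changes are not excluded under that setting. The groups did not overlap for 4 of the 9 markers, Cd72, Cd37 and Il2ra being higher and Cd24a lower in ΔrsCBE. Among all tested genes 16.2% had groups that did not overlap, 7.24% higher and 8.95% lower, and so had 18.3% of those with a mean CPM of at least 50.

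**Figure D2:**
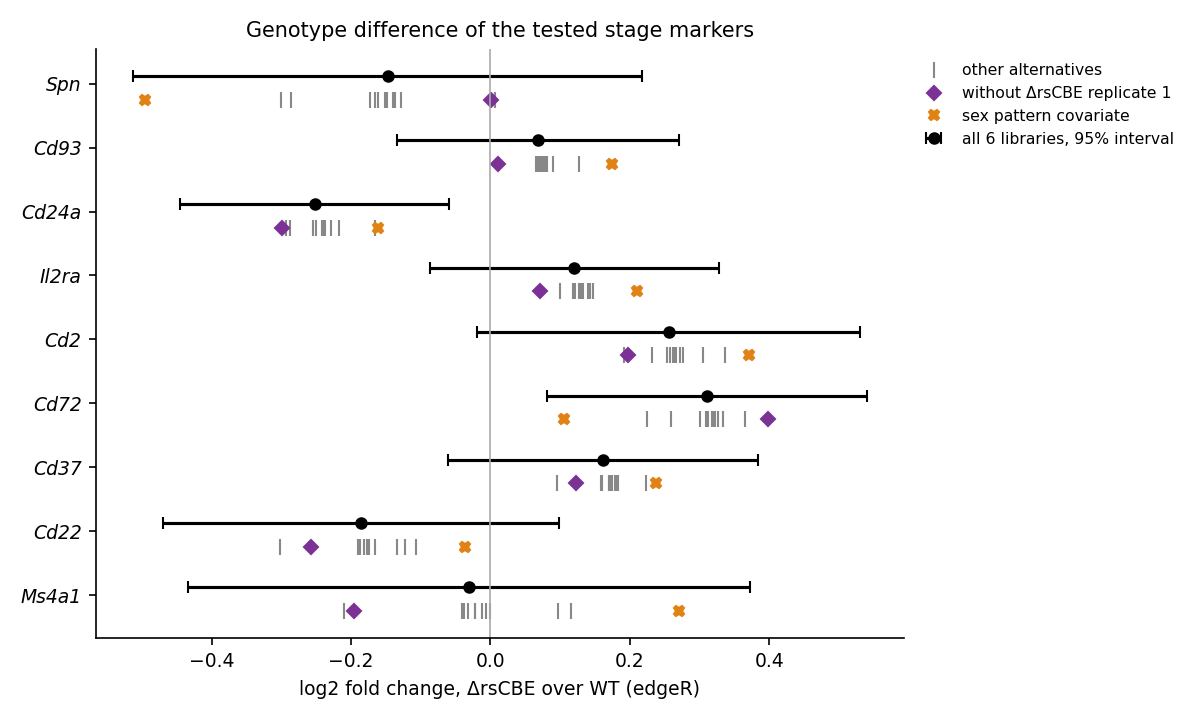
Log2 fold change of ΔrsCBE over WT for the 9 tested markers; black points and bars are the edgeR estimate and its 95% interval over 6 libraries, and the marks beneath are the same estimate under the alternatives. The intervals of Cd72 (centre 0.31) and Cd24a (centre -0.25) leave out 0 before adjustment, and Ms4a1 and Spn have estimates on both sides of 0.

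The markers listed as early-stage come first, of which Cd93 and Cd24a mark immature B-lineage cells as a class. Kit encodes the receptor for stem cell factor and is carried by pro-B cells and earlier progenitors (chromosome 5, 75574916 to 75656722, plus strand). WT replicates 1 to 3 had 1, 0 and 3 counts, and the ΔrsCBE replicates 2, 0 and 0. All 6 libraries were at or below the 3-count limit, so no fold change is given, and the count filter left Kit out of the reported test. The looser filters of a pair of alternatives kept it, and edgeR did not call it in either (adjusted p = 0.830 when every gene with a count was kept, and 0.918 when 3 libraries had to reach a CPM of 1). Over the same libraries Il2ra summed to 3476 counts and Kit to 6, although Kit has the longer annotated exon sequence (8911 against 5711 bases).

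Spn encodes CD43, the sialomucin whose loss marks the step from large to small pre-B cells (chromosome 7, 127132232 to 127137823, minus strand). The WT libraries, replicates 1 to 3, had 115, 186 and 143 CPM and the ΔrsCBE libraries 103, 156 and 133 CPM. The groups overlapped, with WT replicate 2 highest and ΔrsCBE replicate 1 lowest. Its coefficient of variation was 24.2% in WT, where counting alone gives 10.1%. The log2 fold change came to -0.15 ± 0.18 (edgeR adjusted p = 0.852). It was 0.0062 without WT replicate 2, 0.0014 without ΔrsCBE replicate 1 and -0.50 with sex pattern as a covariate, none of them past the threshold, so its direction rests on single libraries.

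Cd93 encodes a C-type lectin-like receptor, the AA4.1 antigen, that is kept from the pro-B stage until newly formed B cells mature in the spleen (chromosome 2, 148436640 to 148443563, minus strand). WT replicates 1 to 3 measured 869, 862 and 870 CPM and the ΔrsCBE libraries 979, 837 and 911 CPM. The WT libraries differed from each other by less than counting error, with a coefficient of variation of 0.447% where counting gives 4.17%. The ΔrsCBE libraries lay on either side of them, and the log2 fold change came to 0.07 ± 0.10 (edgeR adjusted p = 0.885), with 0.01 without ΔrsCBE replicate 1, 0.13 without ΔrsCBE replicate 2 and 0.17 with sex pattern as a covariate.

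Cd24a encodes the heat-stable antigen, a small GPI-anchored glycoprotein that is abundant on marrow precursors and declines on mature B cells (chromosome 10, 43578284 to 43584265, plus strand). WT replicates 1 to 3 had 1853, 2193 and 1871 CPM, and ΔrsCBE replicates 1 to 3 had 1760, 1576 and 1621 CPM. Every ΔrsCBE library lay below every WT library, though the gap between ΔrsCBE replicate 1 and WT replicate 1 was small. Means were 1972 ± 191 and 1652 ± 96.03 CPM (SD, n = 3), and the log2 fold change came to -0.25 ± 0.09 (edgeR adjusted p = 0.268). Without WT replicate 2, the highest library, it was -0.17, and with sex pattern as a covariate it was -0.16 (edgeR adjusted p = 0.702 and 0.668). Without ΔrsCBE replicate 1 it was -0.30 and still missed the threshold, with the lowest edgeR adjusted p of its alternatives, 0.0830. In that fit all WT libraries have a male and all ΔrsCBE libraries a female pattern, so sex and genotype cannot be told apart.

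**Figure D3:**
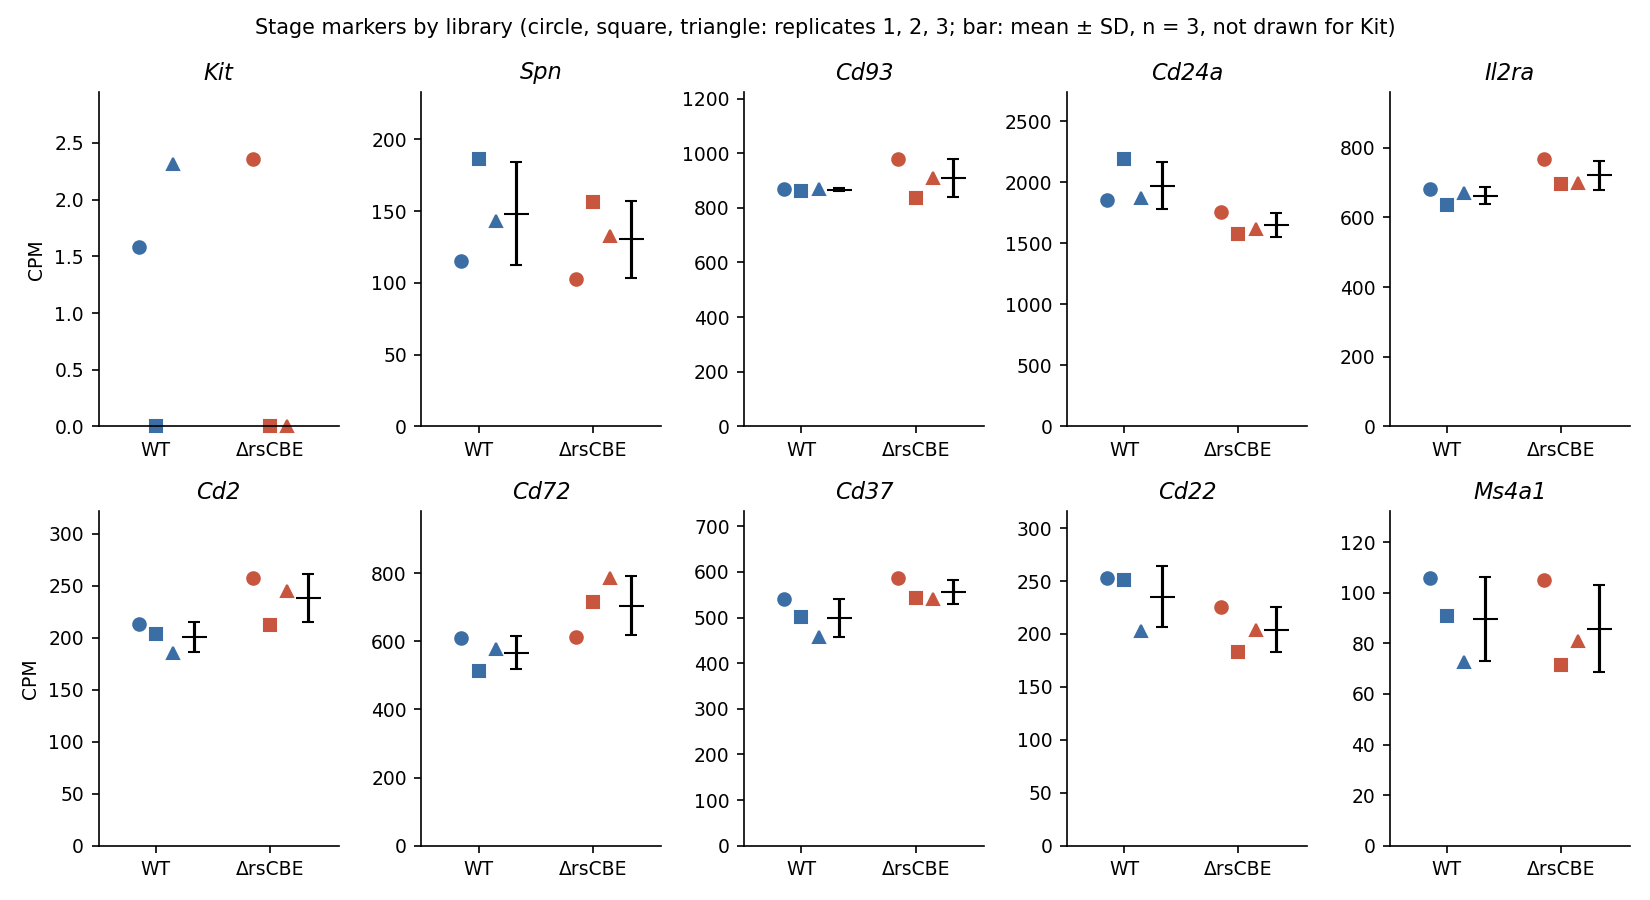
CPM of each stage marker (linear axes from 0, a separate scale for each gene) in the 3 WT and 3 ΔrsCBE libraries, with the mean and SD beside the points except for Kit. For Cd24a all ΔrsCBE points (1576 to 1760) are below the WT points (1853 to 2193), and for Cd72 ΔrsCBE replicate 1 (612) is level with WT replicate 1 (610).

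Next are the markers gained at the pre-B stage. Il2ra encodes CD25, the alpha chain of the interleukin-2 receptor, which in the B lineage is a marker of pre-B cells (chromosome 2, 11642807 to 11693193, plus strand). Its level in WT replicates 1 to 3 was 682, 636 and 670 CPM and in the ΔrsCBE libraries 768, 695 and 699 CPM. The ΔrsCBE libraries were all above the WT libraries, by a margin within the spread of either group. The log2 fold change came to 0.12 ± 0.10 (edgeR adjusted p = 0.765) and ran from 0.07 to 0.21 under the alternatives, never past the threshold.

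Cd2 encodes an adhesion molecule that B-lineage cells acquire once a heavy chain is made and that T and NK cells carry as well (chromosome 3, 101275899 to 101287939, minus strand). The WT libraries, replicates 1 to 3, had 213, 203 and 185 CPM and the ΔrsCBE libraries 257, 212 and 245 CPM. ΔrsCBE replicate 2 lay within the WT range. The log2 fold change came to 0.26 ± 0.13 (edgeR adjusted p = 0.541), and it ran from 0.19 to 0.37 under the alternatives. Of the 12 genes of the T-cell list 10 were at 0 counts in all 6 libraries, among them Cd3e, Cd3g, Cd8a, Thy1 and Trac. Cd3d and Cd4 had 2 counts each over the libraries, while Cd2 had 1088.

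The markers of the mature surface include a pair of inhibitory receptors. Cd72 encodes a C-type lectin that dampens B-cell receptor signalling (chromosome 4, 43446462 to 43454628, minus strand). WT replicates 1 to 3 had 610, 514 and 576 CPM, and ΔrsCBE replicates 1 to 3 had 612, 717 and 785 CPM. The male-pattern ΔrsCBE library was thus level with the highest WT library, and the difference lay in the 2 female-pattern libraries. Means were 566 ± 48.7 and 705 ± 87.1 CPM (SD, n = 3), and the log2 fold change came to 0.31 ± 0.11 (edgeR adjusted p = 0.233). Without ΔrsCBE replicate 1 it was 0.40 and past the threshold (edgeR adjusted p = 0.0401, with 1.94% of all genes called in that fit). That fit sets male-pattern WT libraries against female-pattern ΔrsCBE libraries, so sex pattern and genotype cannot be told apart in it. With sex pattern as a covariate, which leaves ΔrsCBE replicate 1 as the mutant library compared with WT, the log2 fold change of Cd72 was 0.11. Cd72 shares 1423 bases of annotated exon with Tesk1 on the opposite strand, and whether counting used the strand is not stated, so its count is uncertain to that extent. Tesk1 had 226 counts over the 6 libraries against 3217 for Cd72, and its log2 fold change came to 0.28 ± 0.24 (edgeR adjusted p = 0.780).

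Cd22 encodes a sialic acid-binding lectin that also restrains B-cell receptor signalling (chromosome 7, 30865402 to 30880342, minus strand). In WT replicates 1 to 3 the level was 253, 251 and 202 CPM and in the ΔrsCBE libraries 225, 183 and 204 CPM. WT replicate 3 lay among the ΔrsCBE libraries, and the log2 fold change came to -0.19 ± 0.14 (edgeR adjusted p = 0.721). It was -0.30 without WT replicate 3, -0.11 without ΔrsCBE replicate 2 and -0.04 with sex pattern as a covariate, none of them past the threshold. The 2 inhibitory receptors therefore had estimates of opposite sign, neither past the threshold. Cd22 shares 479 bases of exon with the antisense gene Gm29439, which is not listed in the table.

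Cd37 encodes a tetraspanin of lymphocytes (chromosome 7, 45233632 to 45239115, minus strand). WT replicates 1 to 3 stood at 540, 502 and 457 CPM and the ΔrsCBE libraries at 586, 542 and 541 CPM. The groups did not overlap, but ΔrsCBE replicates 2 and 3 were less than 3 CPM above WT replicate 1. The log2 fold change came to 0.16 ± 0.11 (edgeR adjusted p = 0.672), to 0.10 without WT replicate 3 and to 0.24 with sex pattern as a covariate.

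Ms4a1 encodes CD20, a membrane-spanning protein that rises late in the pre-B stage and is high on mature B cells (chromosome 19, 11249675 to 11266241, minus strand). Expression in WT replicates 1 to 3 was 106, 90.8 and 72.6 CPM and in the ΔrsCBE libraries 105, 71.5 and 81.1 CPM, the lowest level of the tested markers. The groups overlapped throughout, and the log2 fold change came to -0.03 ± 0.20 (edgeR adjusted p = 0.980). Its estimate was -0.21 without WT replicate 3 and -0.20 without ΔrsCBE replicate 1, but 0.12 without WT replicate 1, 0.098 without ΔrsCBE replicate 2 and 0.27 with sex pattern as a covariate, so it has no settled direction.

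Cd72, Cd37 and Il2ra were the markers whose ΔrsCBE libraries all lay above the WT libraries, and their RefSeq promoter windows (GRCm38.p6, 250 bases before to 50 after the start, 5′ to 3′ on the gene's strand) are printed for that reason. Capitals mark the single match to AGGAAGT or its reverse complement ACTTCCT, a core sequence bound by ETS-family factors such as PU.1. The motif was chosen after the windows had been read, and both strands were searched. The Cd72 window is chr4:43454577-43454876 (minus strand), the Cd37 window chr7:45238790-45239089 (minus strand) and the Il2ra window chr2:11642542-11642841 (plus strand).
Cd72: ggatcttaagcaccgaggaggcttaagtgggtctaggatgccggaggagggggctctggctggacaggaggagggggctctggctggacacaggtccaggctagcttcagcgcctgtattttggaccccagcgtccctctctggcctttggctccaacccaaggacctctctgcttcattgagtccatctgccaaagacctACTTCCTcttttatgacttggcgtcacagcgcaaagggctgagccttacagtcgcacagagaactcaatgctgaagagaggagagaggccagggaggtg
Cd37: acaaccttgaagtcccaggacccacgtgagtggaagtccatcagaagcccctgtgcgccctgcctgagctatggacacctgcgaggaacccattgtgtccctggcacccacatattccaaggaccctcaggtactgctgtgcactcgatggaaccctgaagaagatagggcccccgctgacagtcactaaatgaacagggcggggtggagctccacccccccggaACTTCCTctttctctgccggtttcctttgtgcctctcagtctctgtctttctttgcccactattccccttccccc
Il2ra: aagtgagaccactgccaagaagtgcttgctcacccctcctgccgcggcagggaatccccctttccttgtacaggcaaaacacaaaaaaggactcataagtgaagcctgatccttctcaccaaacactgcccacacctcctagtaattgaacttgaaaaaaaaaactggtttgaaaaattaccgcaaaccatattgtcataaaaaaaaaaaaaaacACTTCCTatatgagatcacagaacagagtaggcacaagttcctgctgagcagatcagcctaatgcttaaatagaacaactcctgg
The match begins 49 bases before the start in Cd72, 25 in Cd37 and 35 in Il2ra. Promoter windows were found for 6 of the 10 markers, and 4 of these hold the motif, the remaining one being Spn, whose groups overlapped. No window was found for Cd24a, Cd93, Cd2 and Ms4a1. Of 32851 windows of the same length 9.35% hold the motif. Since the motif was chosen from the printed windows, this share is no test of enrichment, and no link to direction was tested. A match describes letters only and shows no binding.

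Within libraries, there were 0.329, 0.234 and 0.308 Cd72 counts per Cd24a count in the WT replicates 1 to 3, against 0.348, 0.455 and 0.484 in the ΔrsCBE replicates. This pair was chosen after the values were seen, and the ratio is a description. The library of ΔrsCBE replicate 1 again stood close to WT. The ratio of Spn to Il2ra, an early against a later marker, was 0.169, 0.293 and 0.213 in WT and 0.134, 0.224 and 0.190 in ΔrsCBE, with overlapping groups.

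Across the 6 libraries, the genes with a mean of at least 50 CPM whose log2 CPM was most like that of Cd72 were Elk3, Pakap and Arhgap45 (Pearson r = 0.989, 0.988 and 0.984, among 3785 genes). For Cd24a they were Tmsb4x, Api5 and Mob1a (r = 0.993, 0.985 and 0.983). With 6 points and that many genes compared, such values are descriptions. None of these 6 genes passed the threshold, and the smallest edgeR adjusted p-value among them was 0.140, for Mob1a.

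The wider set of B-lineage surface genes held no call either. Of 35 other genes listed by stage 25 were tested. At the adjusted threshold edgeR called 0, against 1.69% of all tested genes. At an unadjusted p-value under 0.05 there were 3, against 10.2% of all tested genes. Their median log2 fold change was 0.06, 15 above 0 and 10 below. Of the 8 early genes only Il7r and Bst1 were tested. Il7r, the interleukin-7 receptor chain that sustains precursors, stood at 443 ± 19.5 CPM in the WT and 466 ± 57.5 CPM in the ΔrsCBE libraries (SD, n = 3). Bst1, an ectoenzyme related to CD38, had 90.03, 112 and 81.9 CPM in the WT libraries and 117, 47.3 and 47.9 CPM in ΔrsCBE replicates 1 to 3. The female-pattern libraries were the low ones for Bst1, and its log2 fold change came to -0.39 ± 0.31 (edgeR adjusted p = 0.758). The surrogate light chain genes Igll1 and Vpreb1, expressed in pro-B and large pre-B cells, had 10 and 7 counts over all libraries, Vpreb2 had 0, and the progenitor receptor Flt3 had 1.

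All 10 pan-B genes were tested and none passed. The signalling chains of the B-cell receptor, Cd79a and Cd79b, had the highest levels per length, 667 and 414 CPM per kb, with log2 fold changes of -0.24 and -0.0023. Vpreb3, a chaperone-like partner of light chain assembly, had the highest estimate, 0.53 ± 0.22 (edgeR adjusted p = 0.354). Of 17 late genes 13 were tested. Siglecg, an inhibitory lectin related to CD22, had 199 CPM per kb. Ly6d, placed on the late list although it is a B-lineage specification marker, had 176. S1pr1, the sphingosine phosphate receptor that guides exit from the marrow, had 90.03, 69.3 and 79.5 CPM in the WT libraries and 129, 102 and 154 CPM in the ΔrsCBE libraries. These groups did not overlap, which held for 1 of the 25 tested surface genes and for 16.2% of all tested genes. The log2 fold change of S1pr1, 0.66 ± 0.18, missed the threshold (edgeR adjusted p = 0.0632). Fcer2a and Cr2, which mark mature follicular and marginal zone B cells, had 4 counts each over all libraries.

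Markers of 8 other cell classes (T, NK, myeloid, erythroid, megakaryocyte, mast and basophil, plasmacytoid dendritic, stem and progenitor) served as the check for cells outside the B lineage. It does not cover B-lineage cells of other stages. Whether dividing large pre-B cells were among the sorted cells was not tested. Of 66 genes 46 had 0 counts in all libraries, among them Cd3e, Ncr1, Elane, Pf4, Cpa3, Siglech and Cd34. Their summed level was 68.0 to 95.6 CPM in WT and 77.5 to 81.1 CPM in ΔrsCBE, against 4991 to 5438 CPM for the 10 stage markers. Most of it was Itgam, an integrin chain of myeloid cells, with 279 counts and a log2 fold change of -0.11 (standard error 0.22, edgeR adjusted p = 0.927). Meis1 had 38 counts, Bst2 had 15, and each of the other 63 genes had at most 10 counts over the 6 libraries. The granulocyte genes Lyz2, S100a9, Camp, Ngp, Mpo and Ctsg had 8, 6, 3, 2, 1 and 1 counts, all of them in ΔrsCBE libraries. Of the same list Fcgr3 had 2 counts, all in WT, and Ltf, Csf1r and Adgre1 had counts in each group. Those 63 genes together had 6, 1 and 10 counts in WT replicates 1 to 3 and 19, 8 and 10 in the ΔrsCBE replicates. Their part in any marker difference was not tested. Of the plasma cell list Irf4 (WT 1068 ± 54.7 and ΔrsCBE 1122 ± 158 CPM, SD), Sdc1 and Xbp1 were tested and not called, Jchain had 1 count and Tnfrsf17 had 0. Irf4 is also a regulator of pre-B cells.

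**Figure D4:**
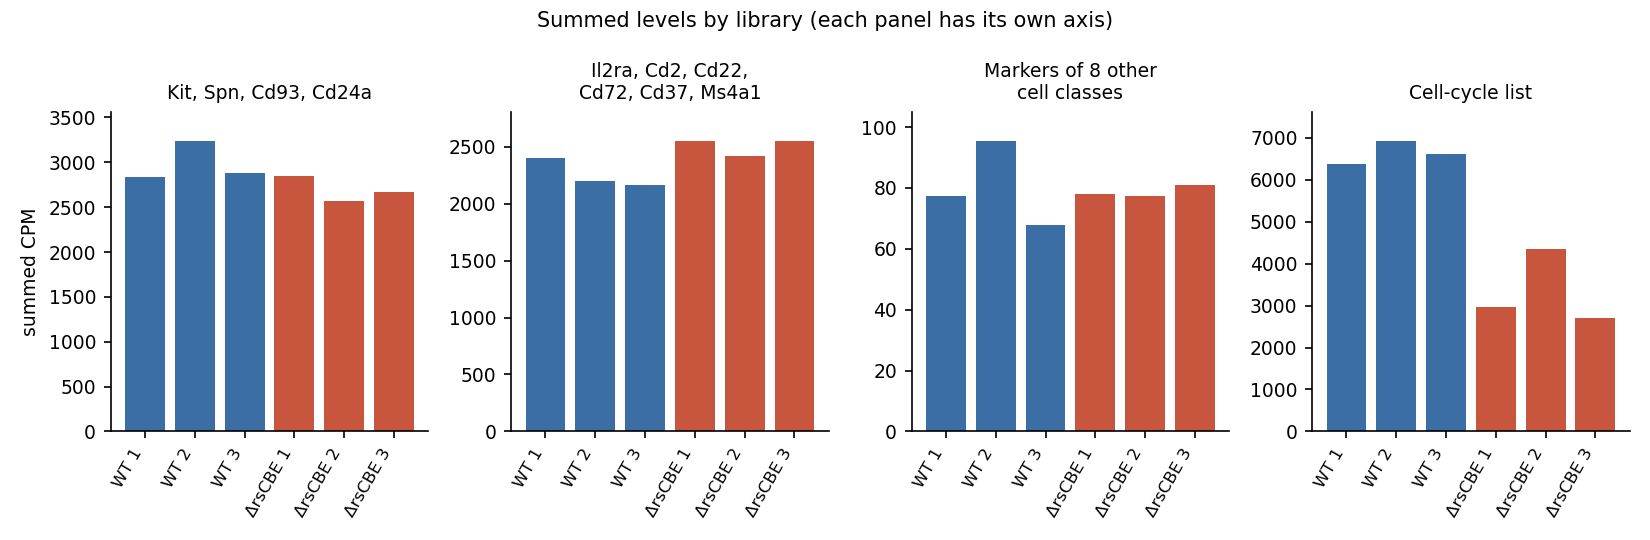
Summed CPM in each library of the 4 early-stage markers, the 6 later markers, the markers of 8 other cell classes and the cell-cycle list, each panel on its own axis from 0. The early-stage sum is 2838 to 3242 in WT and 2569 to 2844 in ΔrsCBE, and the later-marker sum 2163 to 2404 and 2422 to 2555. Most of the early-stage sum is Cd24a (means 1972 in WT and 1652 in ΔrsCBE) and Cd93 (867 and 909), with little from Spn and Kit. Of the 6 later markers 4 have estimates above 0 and 2, Cd22 and Ms4a1, below. The sums therefore do not measure a change of stage. The cell-cycle sum is 6365 to 6933 in WT and 2711 to 4354 in ΔrsCBE.

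A pair of other programmes differed between the libraries in which the stage markers were measured. Of 20 tested cell-cycle genes edgeR called 12 lower and 0 higher at the adjusted threshold. Of all tested genes 1.49% were called lower and 0.205% higher. All 20 estimates were below 0, with a median log2 fold change of -1.03. The proliferation marker Mki67 went from 3478 ± 160 to 1774 ± 503 CPM (SD, edgeR adjusted p = 0.0100). Immediate early genes respond within minutes to signals or handling. Of 9 tested, 3 were called higher (Fos, Jun and Jund) and 0 lower. All 9 estimates were above 0, with a median of 0.70. The ΔrsCBE libraries were uneven. The 10 listed genes summed to 3514 CPM in ΔrsCBE replicate 2, nearer the WT range of 2466 to 2981 than the 5360 and 4896 of ΔrsCBE replicates 1 and 3. The part of either programme in the estimates for Cd72 and Cd24a was not tested.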

How the data were processed

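The deposited table holds whole-number read counts per gene symbol, 1 column per library, with no normalization. The submitters' processing notes list Trim Galore 0.6.10, STAR 2.7.11, HTSeq and DESeq2 and the build mm10; the annotation, the strand setting and any filter are not given in the sources used here. Per the labels' protocols, ribosomal RNA was removed and libraries were made with a stranded total RNA kit. Columns were matched to samples by library name, and groups come from the titles.

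Counts were tested with edgeR 4.0.16 in R 4.3.3: filterByExpr by genotype (minimum count 10), TMM scaling, robust glmQLFit and glmQLFTest with genotype as the factor, and Benjamini-Hochberg adjustment over all 7792 genes. Standard errors come from the quasi-likelihood F, and intervals are at 95%. CPM use total counts scaled by TMM factors, and log2 CPM a prior count of 2. The code was tested on simulated data. Symbols of all 49997 rows matched RefSeq (GRCm38.p6); coordinates and exon lengths are from GENCODE M21. Alternatives covered scaling, test (DESeq2 1.42.0), count filter, threshold, each library left out, replicate number and sex pattern. The members and lists were chosen with earlier results of these data known. Named genes are the 10 markers, the B-lineage surface genes with the highest level per length or largest change in each stage list, the most abundant genes of the other lists, and the 3 genes most like Cd72 and Cd24a; further genes were named as defining markers.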

Additional observations from a re-analysis of the deposited data

How the results depend on the processing

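Cd2, Cd22, Cd24a, Cd37, Cd72, Cd93 and Il2ra kept their direction under all 13 alternatives that give a fold change; Spn and Ms4a1 did not. The count of markers past the threshold was 0 throughout, except 1 (Cd72, log2 fold change 0.40) without ΔrsCBE replicate 1. It thus ranged from 0 to 1 over the fits without a library. The fit without ΔrsCBE replicate 1 sets male-pattern WT against female-pattern ΔrsCBE libraries, so its call cannot be assigned to genotype or to sex. The estimate of Spn was 0.0062 without WT replicate 2 and 0.0014 without ΔrsCBE replicate 1 (-0.30 to 0.0062 over the fits without a library), and that of Ms4a1 was 0.12 without WT replicate 1, 0.098 without ΔrsCBE replicate 2 (-0.21 to 0.12 over the fits without a library) and 0.27 with the sex pattern covariate; the cause was not tested. The median over the markers was 0.17 with the sex pattern covariate, a fit that compares ΔrsCBE replicate 1 alone with WT. It was 0.07 in the reported fit, and in the fits without a library it ran from 0.01 (without ΔrsCBE replicate 1) to 0.13 (without ΔrsCBE replicate 2), with 0.12 without WT replicate 1.

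The count of all genes past the threshold was 132, with 87 under the sex pattern covariate and 59 to 187 in the fits without a library (59 without WT replicate 3 and 59 without ΔrsCBE replicate 3). Higher genes numbered 16 in the reported fit, 25 when low counts were kept, 31 when 3 libraries had to reach a CPM of 1, and 30 at a threshold of 0.1. Without a library they numbered 44 (ΔrsCBE replicate 1), 34 (ΔrsCBE replicate 2), 7 (WT replicate 3) and 6 (ΔrsCBE replicate 3), and lower genes 52 without WT replicate 3 and 53 without ΔrsCBE replicate 3, beside 116. Replicate numbers are shared between the genotypes by name only: deviations of same-numbered libraries correlated at 0.013, 0.020 and 0.0091, and not every library correlated best with its own number. With the replicate block 136 genes and 0 markers were called. At 428106 to 1300805 counts per library, Kit had too few counts for the reported filter.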
